A study of Mus musculus with 6 samples.

Results

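Caspases are proteases that cut after aspartate, and the genes described here are 6 caspases (Casp1, Casp2, Casp4, Casp6, Casp9 and Casp12) together with Apaf1 and Cycs, the scaffold and the trigger of the apoptosome. Every probe set whose platform gene symbol was one of these 8 names was taken, which gave 14 of the 45037 probe sets tested, for 8 of the 17097 genes named on the array. They were measured in CD11c+ dendritic cells sorted from the spleen of C57Bl/6 mice, in 3 Map3k7 knockout samples (genotype Map3k7CreER) and 3 wild-type samples (WT), each on its own Affymetrix array. Mice of both groups had received tamoxifen in vivo for 3 days, and their age is not given in the labels. Tamoxifen is the ligand that activates CreER, so the knockout group carries the Cre, the deletion of Map3k7 and whatever followed in other cells of the mouse, which cannot be told apart. The labels name no promoter for the Cre. They do not say whether each sample is a different mouse, so a p-value here reflects the spread among these samples, which may be technical.

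Map3k7 encodes TAK1, a kinase that passes Toll-like receptor and TNF receptor signals on to NF-kB and the MAP kinases. In the intrinsic death pathway, cytochrome c leaks from mitochondria, binds Apaf1 and assembles the apoptosome. The apoptosome activates the initiator caspase-9, which in turn activates effector caspases. Inflammatory caspases instead act in myeloid cells such as dendritic cells. Among them caspase-1 matures the cytokines IL-1 beta and IL-18, and some open membrane pores by cutting gasdermin D. Caspases are made as inactive precursors, so an mRNA level does not give their activation. Nor does it give the amount of any of these proteins, which was not measured.

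All levels are on a log2 scale, on which 1 unit is a 2-fold difference. The array medians lay between 3.77 and 3.81, so a level near 4 is that of a typical probe set, about the array median. Map3k7 passed the test as lower on 3 of its 5 probe sets. On the brightest it read 4.04, 4.46 and 3.64 in knockout samples, against 6.68, 6.69 and 6.57 in wild-type samples (difference -2.60, SE 0.19, limma adjusted p = 0.00128). The dendritic cell markers Itgax (10.93 in knockout and 11.16 in wild-type samples), Flt3 (11.41 and 11.07) and H2-Ab1 (13.54 and 13.60) were bright in both groups. Of the 9 dendritic cell markers, 8 had a negative difference and only Flt3 a positive one (0.35), with a median of -0.22. The most negative were Zbtb46 (-0.75) and Irf8 (-0.59), for which the groups did not overlap. Of 13 macrophage markers 4 passed as higher (Cd163, Cd5l, Mertk and Trf). Of all named genes 1.08% passed as higher and 0.591% as lower, the shares to set beside each marker list here. In all, 10 of the 13 differences were positive and 3 negative, those of Hmox1 (-0.53, with every knockout array below every wild-type array), Adgre1 (-0.28) and Timd4 (-0.03, below the median level). For 7 of the 13 every knockout array lay above every wild-type array. The log2 levels of the 13 summed to between 89.9 and 95.2 on knockout arrays and between 84.8 and 86.5 on wild-type arrays. Summed levels were lower on knockout arrays for 5 cycling-cell markers, of which Mcm2 passed (39.8 to 43.2, against 44.6 to 45.8 on wild-type arrays), and for 4 erythroid markers, of which 0 passed (15.3 to 17.7, against 19.5 to 22.2). Most of the erythroid gap was Hba-a1 (-3.57), and the other 3 lay between -0.29 and -0.24. Of these Alas2 was below the median level, and Slc4a1 and Epb42 were about at it. In 6 further marker lists 0 genes passed. The 7 neutrophil markers, 3 of them below the median level, summed higher on every knockout array (32.5 to 38.8, against 29.6 to 31.6 on wild-type arrays). S100a8 (2.28) and S100a9 (1.53) carried that sum, and the other 5 lay between -0.14 and 0.15. The sums were lower on every knockout array for 9 dendritic cell markers (95.5 to 96.0, against 97.1 to 98.4), 4 B cell markers (21.6 to 22.0, against 22.4 to 22.8) and 5 T cell markers (22.7 to 23.6, against 24.0 to 24.2). Ms4a1 (-0.51) and Cd79b (-0.27) carried the B cell sum. Cd79a (0.003) lay at about the median level and Pax5 (-0.08) below it. The T cell differences lay between -0.33 and -0.06, with Cd3d and Thy1 near the median level. The sums overlapped for 4 monocyte markers (19.9 to 22.8, against 19.0 to 20.4) and 5 NK cell markers (19.3 to 19.7, against 19.1 to 19.7). Of the NK cell markers 2 were below the median level. The part of these cells in the differences below was not tested. In RNA from a mixed sort, fewer cells of a type and less RNA per cell cannot be told apart.

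With limma and Benjamini-Hochberg adjustment over all 45037 probe sets, 0 of the 14 member probe sets passed an adjusted p of 0.05 in either direction, where 0.804% of all probe sets passed as higher and 0.391% as lower. The nearest to the threshold were Apaf1, Cycs and Casp6. At an unadjusted p under 0.05, 5 of the 14 had a positive and 2 a negative difference, beside 6.41% and 5.88% of all probe sets. On 3 of the 14 every knockout array lay above every wild-type array (8.64% of all probe sets), namely both of Apaf1 and the bright one of Casp6. On 2 every knockout array lay below (8.83% of all probe sets), the bright pair of Cycs. Over the 8 genes, each by its brightest probe set, the median difference was 0.19, against -0.02 over all 17097 named genes.

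**Figure D1:**
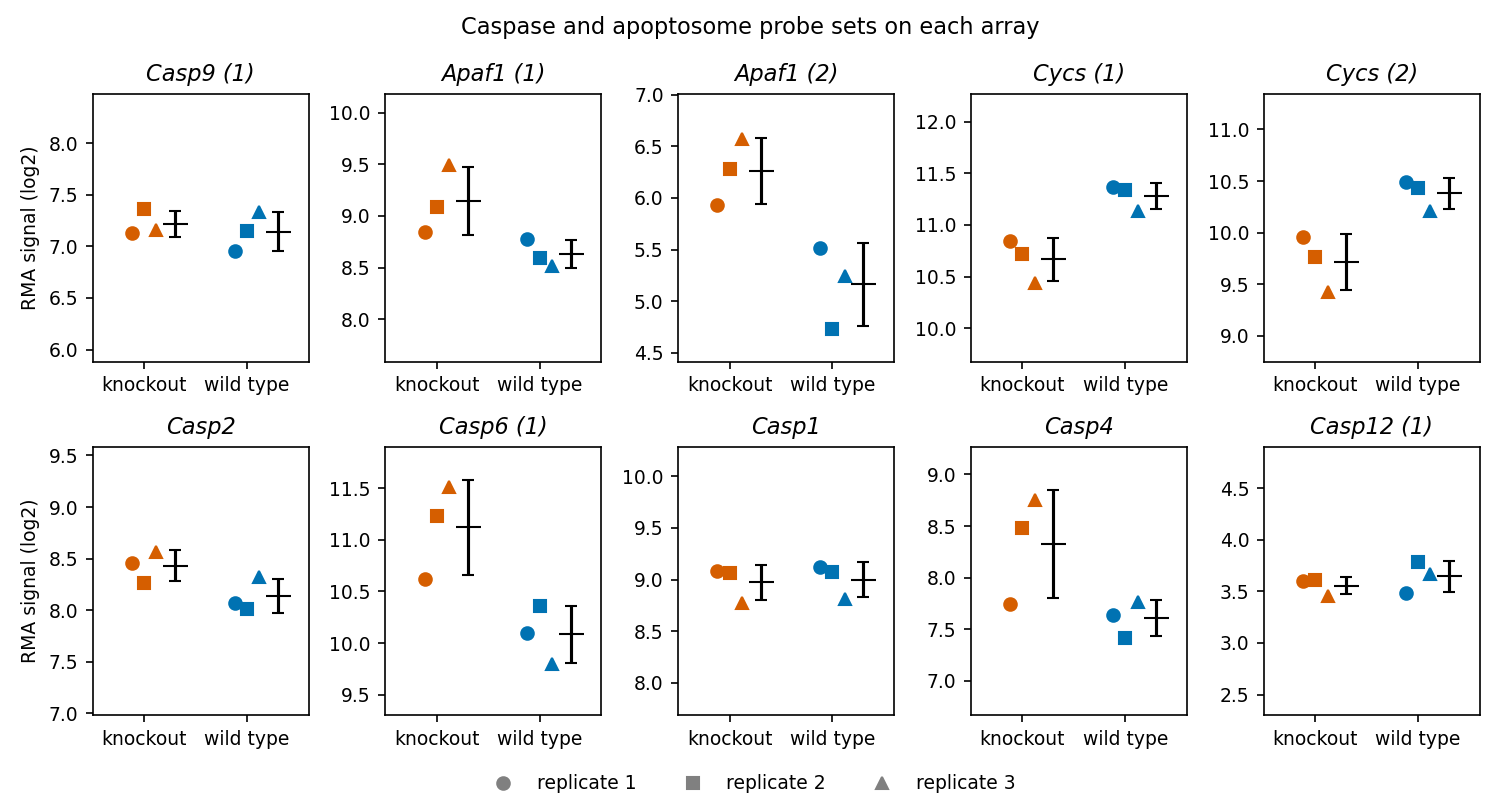
RMA signal (log2) of 10 member probe sets on each array, knockout samples left and wild-type samples right; symbols mark the replicate, the black bar is the mean with the SD of 3 arrays, and every panel spans the same number of log2 units. A number after a name ranks its probe sets from the brightest down. The groups are separate for Apaf1, Cycs and Casp6 and overlap for Casp9, Casp2, Casp1, Casp4 and Casp12.

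Of the apoptosome genes, Apaf1 had positive differences on both probe sets (0.52 and 1.10) and Cycs negative ones on its bright pair (-0.61 and -0.66), with limma adjusted p between 0.072 and 0.238, so none passed. Casp9 stood at 0.07. The 250 bases before the annotated start of Apaf1 and of Cycs are shown because these are the genes whose probe sets come nearest to the threshold. They are taken from RefSeq on mouse build GRCm38.p6, at chr10:91082744-91082993 on the minus strand for Apaf1 and chr6:50566570-50566819 on the minus strand for Cycs. Capitals mark the motifs found, NRF1 (GCATGCGC) in both, read as its reverse complement in Apaf1, and CRE (TGACGTCA) in Cycs.
Apaf1: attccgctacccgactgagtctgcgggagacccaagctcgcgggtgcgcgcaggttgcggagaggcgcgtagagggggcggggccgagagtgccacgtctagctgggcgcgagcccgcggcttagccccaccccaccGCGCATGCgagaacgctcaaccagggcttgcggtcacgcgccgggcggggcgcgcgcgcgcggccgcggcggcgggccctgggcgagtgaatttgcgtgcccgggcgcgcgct
Cycs: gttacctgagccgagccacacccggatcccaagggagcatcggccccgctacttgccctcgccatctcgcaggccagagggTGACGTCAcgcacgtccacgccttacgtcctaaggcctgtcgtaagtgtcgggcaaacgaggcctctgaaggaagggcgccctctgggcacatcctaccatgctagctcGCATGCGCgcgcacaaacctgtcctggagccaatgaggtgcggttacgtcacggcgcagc

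NRF1 is a regulator of genes for mitochondrial proteins, and CRE is the site of CREB-type factors. Of 32851 RefSeq promoter windows of this length, 2.26% held the NRF1 motif and 1.55% the CRE motif on either strand. Both strands of the 8 genes' windows were also searched for AP-1 (TGANTCA), the core of the interferon response element (GAAANNGAA), E2F (TTTNGCGC), FoxO (TGTTTAC) and NF-kB (GGNNTTTCC). The CRE match lies 169 to 162 bases and the NRF1 match 60 to 53 bases before the start of Cycs, and the NRF1 match of Apaf1 lies 113 to 106 bases before its start. None of the matches overlapped another. A match is a run of letters and was not tested for binding.

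Apaf1, which oligomerises around cytochrome c and recruits caspase-9, had 2 probe sets. On the brighter it read 8.85, 9.09 and 9.49 in knockout samples, against 8.78, 8.59 and 8.51 in wild-type samples. The lowest knockout array was only just above the highest wild-type array. The difference was 0.52 (SE 0.17, 95% interval 0.13 to 0.90, limma adjusted p = 0.238), a 1.43-fold higher signal. The other probe set showed a wider gap, with 5.93, 6.28 and 6.57 in knockout samples and 5.51, 4.73 and 5.24 in wild-type samples. Its difference was 1.10 (SE 0.23, 95% interval 0.57 to 1.62, limma adjusted p = 0.072), and the 2 intervals overlap. As the mean of both probe sets the difference was 0.81 (limma adjusted p = 0.0988).

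Cycs encodes cytochrome c, which carries electrons in the respiratory chain and starts apoptosome assembly once it reaches the cytosol. Its brightest probe set read 10.84, 10.72 and 10.44 in knockout samples, against 11.37, 11.34 and 11.13 in wild-type samples. The second read 9.96, 9.76 and 9.43 in knockout samples, against 10.49, 10.43 and 10.21 in wild-type samples. Both sets of values ordered the arrays in the same way within each group, and neither overlapped between the groups. Their differences were -0.61 (SE 0.13, 95% interval -0.92 to -0.31, limma adjusted p = 0.0774) and -0.66 (SE 0.15, 95% interval -1.01 to -0.32, limma adjusted p = 0.0955). These correspond to signals 1.53-fold and 1.58-fold lower in knockout cells. The third Cycs probe set was below the median level, between 3.08 and 3.36 on the knockout arrays and between 3.32 and 3.35 on the wild-type arrays, and gave -0.10 (SE 0.10). Processed pseudogenes of Cycs are known in the mouse genome, and whether the probes also read them was not tested.

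Casp9, the initiator caspase that the apoptosome activates, read 7.13, 7.37 and 7.16 in knockout samples, against 6.95, 7.14 and 7.33 in wild-type samples. The groups overlapped throughout, with a difference of 0.07 (SE 0.13, 95% interval -0.22 to 0.37, limma adjusted p = 0.888). The dimmer Casp9 probe set lay close to the median level, at 4.24 ± 0.29 in knockout samples and 3.92 ± 0.35 in wild-type samples (SD, 3 arrays each).

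Casp2 is an initiator caspase of another kind, activated on the PIDD1 and CRADD platform and tied to DNA damage and mitotic faults. It read 8.46, 8.27 and 8.57 in knockout samples, against 8.07, 8.01 and 8.32 in wild-type samples. The knockout values were the higher ones on average, but the lowest of them lay below the highest wild-type value. The difference was 0.30 (SE 0.12, 95% interval 0.01 to 0.58, limma adjusted p = 0.383).

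**Figure D2:**
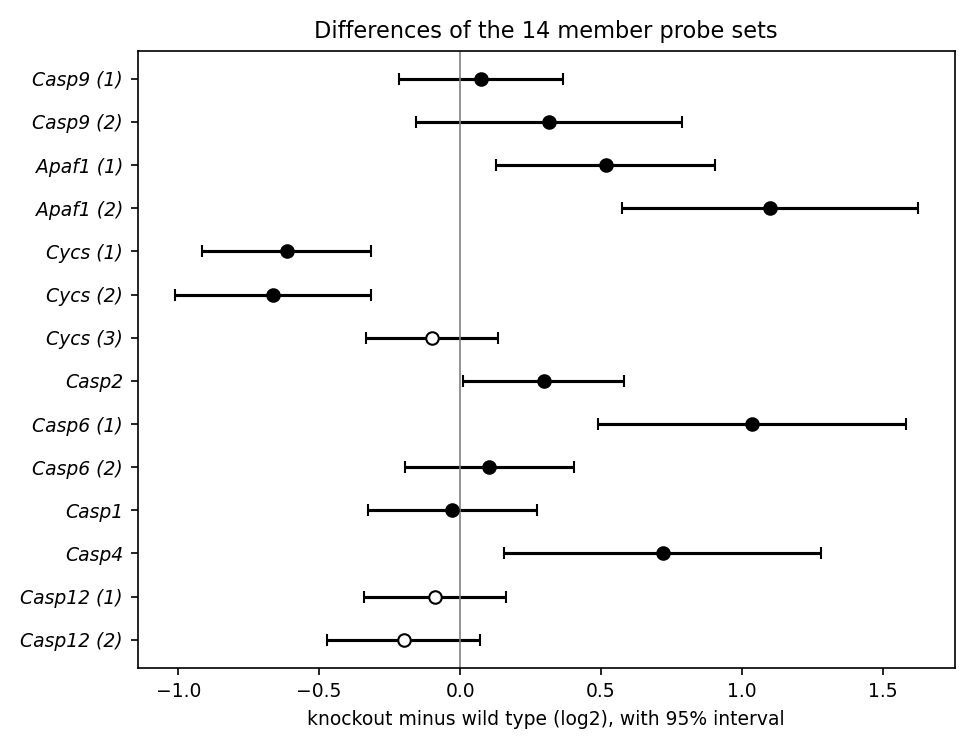
Difference of each of the 14 member probe sets, knockout minus wild type (log2), with its 95% interval from limma, not adjusted for the number of probe sets; open circles are probe sets below the median level. The intervals of both Apaf1 probe sets, the bright Cycs pair, Casp2, Casp4 and the bright Casp6 probe set leave out 0, and those of Casp9, Casp1 and Casp12 span it.

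The effector caspase Casp6 cuts lamin A among other proteins. On its bright probe set the signal in knockout cells was about 2 times that in wild-type cells, but the difference did not pass. That probe set read 10.62, 11.23 and 11.52 in knockout samples, against 10.10, 10.35 and 9.80 in wild-type samples. Every knockout array was above every wild-type array, and the knockout arrays were spread more widely. The difference was 1.04 (SE 0.24, 95% interval 0.49 to 1.58, limma adjusted p = 0.0974), or 2.05-fold. Without knockout replicate 1, the lowest knockout array, it was 1.29 (limma adjusted p = 0.0234). In the other 5 fits with 1 array left out it was 0.84 to 1.17 and did not pass (limma adjusted p = 0.17 to 0.313), the lowest being that without knockout replicate 3. The second Casp6 probe set lay at the median level, at 3.89 ± 0.20 in knockout samples and 3.79 ± 0.14 in wild-type samples (SD, 3 arrays each), and the mean of both gave 0.57 (limma adjusted p = 0.147).

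The promoter window of Casp6, the largest difference among the brightest probe sets of the 8 genes, lies at chr3:129901165-129901414 on the plus strand of GRCm38.p6 (RefSeq). None of the 7 motifs was found in these 250 bases, so no letter is in capitals.
Casp6: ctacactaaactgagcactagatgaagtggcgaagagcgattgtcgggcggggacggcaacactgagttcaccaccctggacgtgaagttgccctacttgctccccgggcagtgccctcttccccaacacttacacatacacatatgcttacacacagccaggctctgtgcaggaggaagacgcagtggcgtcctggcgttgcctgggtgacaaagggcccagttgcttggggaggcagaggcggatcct

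Among 10511 other genes at or above the median level, the 3 whose 6 centred values lay nearest to those of Casp6 by Euclidean distance were B4galt3, a galactosyltransferase (distance 0.23), Igfbp6, an insulin-like growth factor binding protein (0.30), and Lgmn, a lysosomal protease (0.30). B4galt3 read 6.53, 7.27 and 7.36 in knockout samples, against 5.96, 6.18 and 5.84 in wild-type samples. Igfbp6 met the level filter through its knockout arrays, with means of 4.26 in knockout and 3.38 in wild-type samples, the second below the median level. The distance is a description over 6 arrays in 2 groups, and the choice by nearness fixes that these genes follow the groups as Casp6 does.

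**Figure D3:**
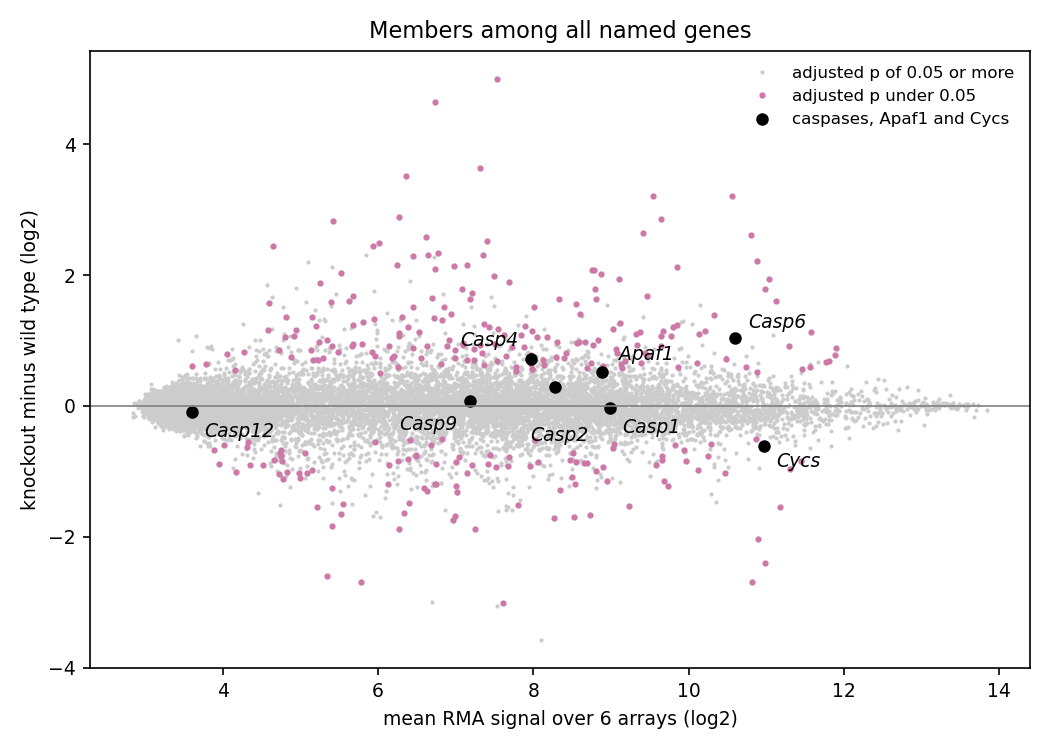
Mean signal over the 6 arrays (log2) against the difference, knockout minus wild type (log2), for the brightest probe set of each of the 17097 named genes; coloured points have an adjusted p under 0.05 and black points are the 8 members. Casp6 (1.04) is the highest of the members and Cycs (-0.61) the lowest.

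The inflammatory caspases Casp1, Casp4 and Casp12 are neighbours on chromosome 9, with no other protein-coding gene between them in the RefSeq table. None of them passed, and their differences were not compared with each other. Casp4, known in mice as caspase-11, binds bacterial lipopolysaccharide in the cytosol and cuts gasdermin D. It read 7.74, 8.49 and 8.75 in knockout samples, against 7.64, 7.42 and 7.77 in wild-type samples. Knockout replicates 2 and 3 were above every wild-type array, while knockout replicate 1 lay among them. The difference was 0.72 (SE 0.24, 95% interval 0.16 to 1.28, limma adjusted p = 0.26). Without knockout replicate 1 it was 1.01 (limma adjusted p = 0.0254). In the other 5 fits with 1 array left out it was 0.51 to 0.80 and did not pass (limma adjusted p = 0.279 to 0.554), the lowest being that without knockout replicate 3. Knockout replicate 1 was also the lowest knockout array for the bright Casp6 probe set, both Apaf1 probe sets and Casp9, and the highest for the bright Cycs pair. On the brightest probe sets, the lowest was knockout replicate 2 for Casp2 and knockout replicate 3 for Casp1 and Casp12.

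The window before the first annotated start of Casp4 is shown because it is the only one of the 8 genes' windows with an NF-kB motif, and TAK1 acts upstream of NF-kB. It lies at chr9:5308599-5308848 on the plus strand of GRCm38.p6 (RefSeq), and a second annotated start gives an overlapping window with the same matches. Capitals mark 2 NF-kB matches, 92 to 84 and 14 to 6 bases before the start, the second as its reverse complement, and a FoxO match on the reverse strand 209 to 203 bases before it. The NF-kB motif was present in 4.93% and the FoxO motif in 3.17% of the 32851 windows. Whether these matches have a part in the level of Casp4 was not tested.
Casp4: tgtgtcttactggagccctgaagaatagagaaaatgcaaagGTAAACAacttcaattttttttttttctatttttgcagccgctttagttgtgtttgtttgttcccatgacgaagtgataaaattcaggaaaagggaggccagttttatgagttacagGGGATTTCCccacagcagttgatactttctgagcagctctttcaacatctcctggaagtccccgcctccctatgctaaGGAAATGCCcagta

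Casp1, the protease that matures IL-1 beta and IL-18, read 9.08, 9.06 and 8.77 in knockout samples, against 9.12, 9.07 and 8.81 in wild-type samples. The 2 groups overlapped over their whole range. The difference was -0.03 (SE 0.13, 95% interval -0.33 to 0.27, limma adjusted p = 0.965). Casp12, a caspase of the endoplasmic reticulum, was below the median level on both of its probe sets. It read 3.60, 3.61 and 3.46 in knockout samples, against 3.48, 3.78 and 3.67 in wild-type samples, on the brighter one (difference -0.09, SE 0.11, limma adjusted p = 0.837). The other gave -0.20 (SE 0.12, limma adjusted p = 0.583). A probe set this dim may read no transcript, so these values do not bear on a change of Casp12.

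The genes that surround these proteins were taken from 6 lists of 49 genes, of which 40 were measured and the others are not analysed here. Of the 40, 1 rose and 1 fell, beside 1.08% and 0.591% of all named genes, and their median difference was 0.05. The gene that rose was Il18, a cytokine that caspase-1 matures. It read 9.98, 10.25 and 10.30 in knockout samples, against 9.11, 9.14 and 9.08 in wild-type samples, and the lowest knockout array was well above the highest wild-type array. The difference was 1.07 (SE 0.11, limma adjusted p = 0.00647), a 2.09-fold higher signal. It was the 1 of 9 measured inflammasome genes that passed. Of the 9 genes 8 had a positive difference, beside 7880 of all 17097 named genes, and the list median was 0.08. At an unadjusted p under 0.05, 3 were higher and 0 lower, beside 8.41% and 8% of all named genes. Besides Il18 these were Naip5, a sensor of bacterial flagellin with close paralogs (0.59, limma adjusted p = 0.109), and Nlrp3, the sensor of the NLRP3 inflammasome (0.44, limma adjusted p = 0.334). Summed over the list, the levels were 79.4 to 80.2 on knockout arrays and 76.6 to 77.6 on wild-type arrays. Il18, Naip5 and Nlrp3 carried most of that gap, and the other differences in the list lay between -0.03 and 0.27.

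The gene that fell was Htra2, a mitochondrial serine protease that can bind and inactivate inhibitors of apoptosis. It read 8.07, 7.88 and 8.22 in knockout samples, against 8.76, 8.92 and 8.99 in wild-type samples. The groups were separate, and the signal was 1.78-fold lower in knockout cells (difference -0.83, SE 0.12, limma adjusted p = 0.0226). Its 1 probe set is of a type that can match several transcripts, and leaving out 1 array at a time kept it past the threshold in 2 of 6 fits, those without knockout replicate 1 or 3. Of the 7 genes in the list of caspase inhibitors and their antagonists the other 6 did not pass, with Cflar, the inhibitor of caspase-8 activation, at -0.72 (limma adjusted p = 0.0756) and a list median of -0.11. The other Cflar probe sets gave -0.37, -0.35, -0.47 and 0.14, the last below the median level. On each of these the groups overlapped.

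None of the other lists had a gene past the threshold, and at an unadjusted p under 0.05 they held 2 higher genes (Casp8 and Ern1) and 4 lower ones (Bid, Bak1, Traf2 and Lmna), beside the same 8.41% and 8% of all named genes. Of 8 genes for cytochrome c maturation and release 6 had a negative difference (median -0.13), beside 9217 of all 17097 named genes. The most negative of the 8 were the BH3 protein Bid (-0.47, limma adjusted p = 0.341) and the pore former Bak1 (-0.32, limma adjusted p = 0.38). The list named caspase-activating adaptors held 6 genes, with a median of -0.06, and the name does not give the role of each gene. In it the ubiquitin ligase Traf2 stood at -0.50 (limma adjusted p = 0.122) and the endoplasmic reticulum stress sensor Ern1 at 0.28 (limma adjusted p = 0.276). Of the 2 other caspases measured, Casp8, the initiator of death receptor signalling, stood at 0.41 (limma adjusted p = 0.138), with 9.39 ± 0.14 in knockout samples and 8.98 ± 0.07 in wild-type samples (SD, 3 arrays each). Casp14, a caspase of the skin, was below the median level (-0.10, limma adjusted p = 0.86). Of 9 caspase substrates, Lmna, which encodes lamin A, stood at -0.66 (limma adjusted p = 0.152) and the kinase Pak2 at 0.17 (limma adjusted p = 0.544), with a median of 0.06. The Lmna probe set was dim, with means of 4.16 in knockout and 4.82 in wild-type samples. Its other probe sets, all below the median level, gave 0.02, -0.29 and -0.10.

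**Figure D4:**
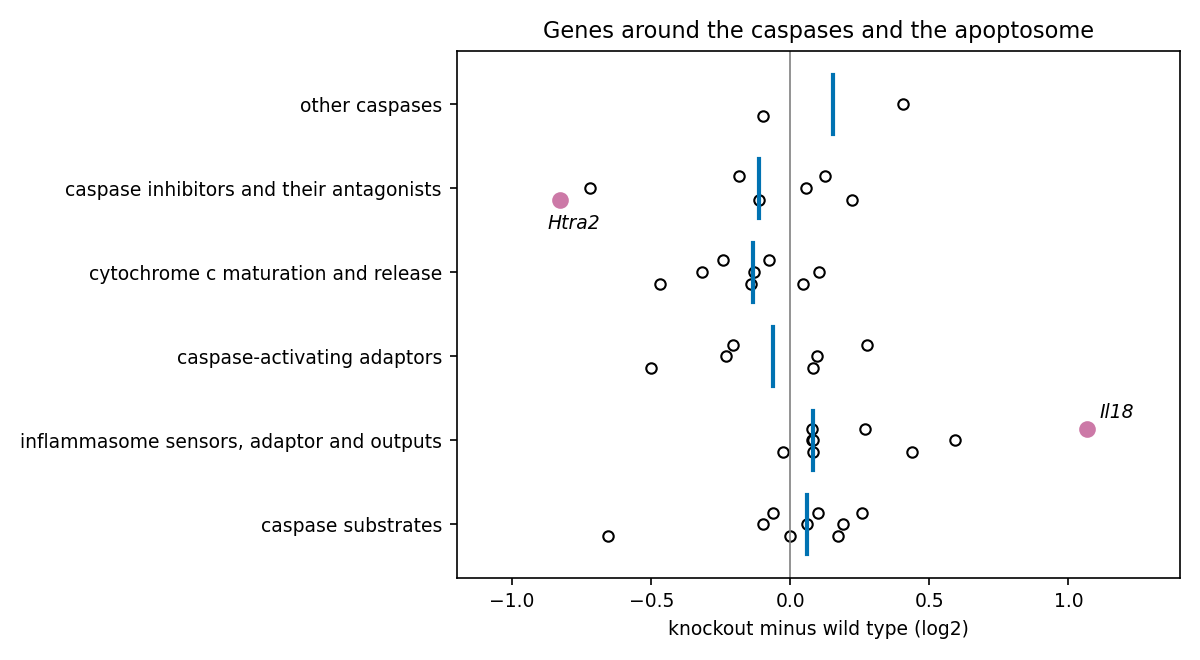
Differences, knockout minus wild type (log2), of the measured genes of 6 lists, each by its brightest probe set; coloured points have an adjusted p under 0.05, the staggering of points within a list carries no value, and the blue bar is the list median. Il18 lies at 1.07 and Htra2 at -0.83, and the list medians lie between -0.13 and 0.15.

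Other ways of processing the values changed whether some members passed. The number past the threshold among all probe sets or genes tested also varied, from 100 to 567 higher and from 25 to 426 lower. Casp6 ran from 0.57 to 1.29 over 15 alternatives and passed in 2, Cycs from -0.70 to -0.46 and passed in 3, and Casp4 from 0.51 to 1.01 and passed in 1. Apaf1 ran from 0.34 to 0.81 and passed in 0 of 15. Casp2 stayed between 0.23 and 0.39, and Casp9 and Casp1 crossed 0. With 1 array left out the ranges were 0.84 to 1.29 for Casp6, -0.70 to -0.50 for Cycs and 0.34 to 0.66 for Apaf1.

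**Figure D5:**
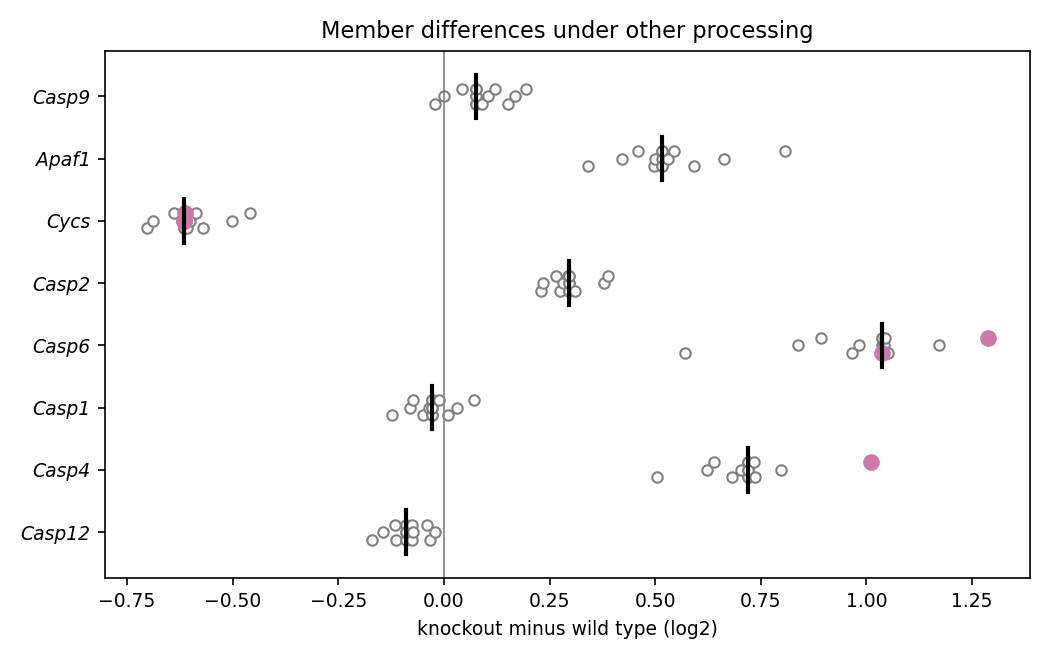
Difference of the brightest probe set of each member, knockout minus wild type (log2), under each of the 15 alternatives (14 for Casp12), 1 circle each; the black bar is the value reported above, coloured circles have an adjusted p under 0.05, and the staggering carries no value. Coloured circles appear for Cycs, Casp6 and Casp4, and the circles of Casp1 and Casp9 lie on both sides of 0.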

How the data were processed

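Total RNA (100 ng per sample) was hybridised to Affymetrix 3' arrays, per the labels' protocols. The submitters' processing notes name RMA and Affymetrix Expression Console 1.1, from which the authors deposited log2 values, 1 per probe set and array. The scale was read from the values (2.58 to 13.9). RMA corrects background, gives all arrays 1 distribution and combines probes into a probe set value. It understates folds of dim genes and leaves no detection call. The genome build is not given in the sources used here. There is no read depth, and precision is limited by the number of arrays.

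After 104 Affymetrix controls were removed, the other 45037 probe sets entered limma 3.58.1 under R 4.3.3 (functions lmFit and eBayes, no covariates). The contrast was knockout minus wild type. P-values were adjusted by Benjamini-Hochberg over all 45037, with a threshold of 0.05. Intervals are 95% intervals from the same fit. The annotation gave 28898 probe sets 1 symbol, 551 several and 15588 none, and no gene was named from several symbols. A gene in a list was represented by its brightest probe set over the 6 arrays. Named genes were all 8 members, Map3k7, the genes past the threshold in each list or, where fewer than 2 passed, the 2 with the smallest p, and the 3 nearest to Casp6. Marker genes were named only to describe their lists, and Nlrp3 lies outside the rule and was named after its values were seen. The members and lists were chosen with earlier results of these data known. The limma step was tested on simulated data. Figures were drawn with matplotlib 3.10.9.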

Additional observations from a re-analysis of the deposited data

How the results depend on the processing

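The 15 alternatives were leaving out dim probe sets (under the median level), leaving out x and s probe sets, quantile normalization again, median centring, trended or robust variances, weighted arrays, a replicate block, averaging the probe sets of a gene, and leaving out each array. The count of member probe sets past the threshold was 0 higher and 0 lower, and changed to 1 higher (Casp6) and 1 lower (Cycs) with trended variances, 1 lower (Cycs) with array weights, and 2 lower (both Cycs) with the replicate block. With 1 array left out it was 0 to 2 higher, the 2 being Casp6 and Casp4 without knockout replicate 1, and 0 lower. Over all 45037 probe sets, 362 passed as higher and 176 as lower in the main fit. These counts were 418 and 232 with trended variances, 483 and 268 with array weights, and 567 and 426 with the replicate block. Without knockout replicate 1 they were 498 and 362. In the other 5 fits with 1 array left out they were 100 to 241 and 25 to 122. List genes past the threshold were 1 higher (Il18) and 1 lower (Htra2). The lower count was 0 without x and s probe sets, which removes Htra2, 2 with the replicate block (Htra2 and Cflar), and 0 to 1 with 1 array left out. Casp1 ran from -0.12 to 0.072 and Casp9 from -0.020 to 0.17 with 1 array left out, so each changed sign. Same-numbered samples deviated together with correlations of 0.05, 0.13 and 0.32, which does not establish pairing. The median filter removed Casp12, and the cause of the other changes was not tested.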
